A study of Mus musculus with 5 samples.

Results

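The immunity-related GTPases are a family of large GTPases that mouse cells make in response to interferon-gamma. Its 7 members described here, Irgm1, Irgm2, Igtp, Iigp1, Ifi47, Tgtp1 and Tgtp2, were chosen by gene symbol among the 31053 genes counted in single cells of mouse hearts, and all 7 were found. Interferon-gamma from T cells and natural killer cells acts through its receptor and the kinases Jak1 and Jak2, and the genes it induces carry short promoter elements. The GTPases then gather on the membranes of vacuoles that hold intracellular parasites and break them open. Irgm1, Irgm2 and Igtp (also called Irgm3) are the regulators, which keep the other GTPases inactive on the cell's own membranes. Iigp1 (Irga6), Tgtp1 and Tgtp2 (both Irgb6) and Ifi47 (Irgd) are counted among the effectors.

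Both groups of mice lacked Pdcd1, the gene of the T cell checkpoint receptor PD-1. The control group (Ctla4+/+ Pdcd1-/-, 4 mice, libraries 1 and 2) kept both copies of Ctla4, the gene of a further T cell checkpoint receptor. The disease group (Ctla4+/- Pdcd1-/-, 10 mice, libraries 3, 4 and 5) carried 1 intact copy and is the study's myocarditis model, named after the immune checkpoint inhibitors used against tumours, which can inflame the heart. Hearts were digested and pooled, so a library holds cells of several mice, and live nucleated cells (DRAQ5+DAPI-) were sorted. Ages, sexes and the mice behind each library are not given in the sources used here, so p-values measure the spread between libraries. Every control carries the Pdcd1 loss too.

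The 5 libraries held between 24991704 and 55053988 UMIs (unique molecular identifiers, each marking 1 captured RNA molecule), and 37202 of 47319 barcodes were kept as cells, with a median of 3366 to 4540 UMIs. The kept cells held 246864 UMIs of the family. Kept barcodes shared by a pair of libraries numbered 50 to 98. Cells were sorted into lineages by marker UMIs that include no GTPase, and 92.3% received a lineage. T cell numbers differed widely, with 556 and 89 in control libraries 1 and 2 and 131, 2237 and 574 in disease libraries 3, 4 and 5. Ctla4 was counted in every library, at 32.7 and 1.43 CPM (the UMI count of a gene scaled to a fixed total of UMIs) in the controls and 5.37, 162 and 50.4 CPM in disease libraries 3, 4 and 5, so the groups overlapped and its level does not check the labels. Pdcd1 was also counted in every library, at 3.12 to 263 CPM, which shows reads from the altered gene and likewise checks nothing.

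The promoters of the members are shown first, because interferon-responsive elements are the feature that the family is known for. Windows from 250 bases before to 50 after the transcription start (RefSeq, GRCm38.p6) were available for 6 of the 7 genes, all 6 on chromosome 11. They were searched on both strands for the interferon-stimulated response element (ISRE), spelled GAAANN followed by GAAA, and the gamma-activated site TTCNNNGAA (GAS). The stretches that hold matches are printed 5′ to 3′ on the gene's strand, with the matches in capitals.
Igtp, chr11:58199499-58199543, plus strand: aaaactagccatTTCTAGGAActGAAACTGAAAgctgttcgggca
Irgm2, chr11:58214890-58214934, plus strand: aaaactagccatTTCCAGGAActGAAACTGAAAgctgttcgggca
Tgtp1, chr11:48992302-48992346, minus strand: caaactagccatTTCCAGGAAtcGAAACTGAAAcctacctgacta
Tgtp2, chr11:49064261-49064305, minus strand: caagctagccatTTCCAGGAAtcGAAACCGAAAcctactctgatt
Irgm1, chr11:48871423-48871462, minus strand: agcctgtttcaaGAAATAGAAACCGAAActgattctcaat

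In Igtp, Irgm2, Tgtp1 and Tgtp2 a GAS was followed, after a pair of bases, by an ISRE on the same strand. The GAS of Igtp lay at positions -45 to -37 from the start and its ISRE at -34 to -25. In Tgtp2 they lay at -81 to -73 and -70 to -61. The Irgm1 window held overlapping ISRE matches, at -30 to -21 and -24 to -15, and no GAS by these letters. These letters were not in the Ifi47 window. Over 32851 promoter windows of the same length, 3.44% held an ISRE, 8.30% a GAS and 0.454% both. A match is a description of the sequence and was not tested for binding.

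By GENCODE annotation of GRCm38, Irgm1 (chr11:48861968-48871683), Tgtp1 (chr11:48985327-48994172), Tgtp2 (chr11:49057194-49064206) and Ifi47 (chr11:49076587-49096974) are neighbours on chromosome 11, and Igtp (chr11:58199556-58207591) and Irgm2 (chr11:58199618-58222782) lie further along it. Iigp1 is on chromosome 18. On the same strand, the Irgm2 gene model overlaps Igtp, that of Ifi47 overlaps Olfr56 and that of Tgtp1 overlaps Gm12185, so reads in the shared stretches are uncertain. On the opposite strand, Tgtp1 and Tgtp2 overlap Olfr56, which matters only if counting ignored strand, and the strand setting is not given in the sources used here. The longest coding transcripts of Tgtp1 and Tgtp2 are 99.3% identical over their length. Over their first 91 bases, the end that the 5′ chemistry reads, identity was 75.7% of 103 aligned columns. Columns where 1 transcript has no base count there as differences, so this value understates how alike the paired bases are. Counts of these 2 genes are therefore uncertain, and the sum of the pair is safer than either alone.

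Endothelial cells held the most family RNA among the lineages with at least 50 cells in every library, and B cells the least. The summed level of the 7 genes in endothelial cells was 2318 and 1460 CPM in control libraries 1 and 2 and 1419, 4047 and 2118 CPM in disease libraries 3, 4 and 5. It was above that of mural cells (pericytes and smooth muscle) in 5 of 5 libraries, by a mean of 0.57 ± 0.10 on the log2 scale (SD, n = 5). Fibroblasts ranged from 368 to 3243 CPM and monocytes and macrophages from 426 to 1950 CPM, and these 2 did not differ beyond the spread between libraries (0.21 ± 0.39, SD, n = 5). T cells ranged from 308 to 831 CPM and stood above B cells, at 71.0 to 252 CPM, in 5 of 5 libraries. In each of these 6 lineages disease library 4 was the highest. Mural cells also carried endothelial marker RNA at 21.9 to 28.1% of the endothelial level, and its part in their GTPase level was not tested.

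**Figure D1:**
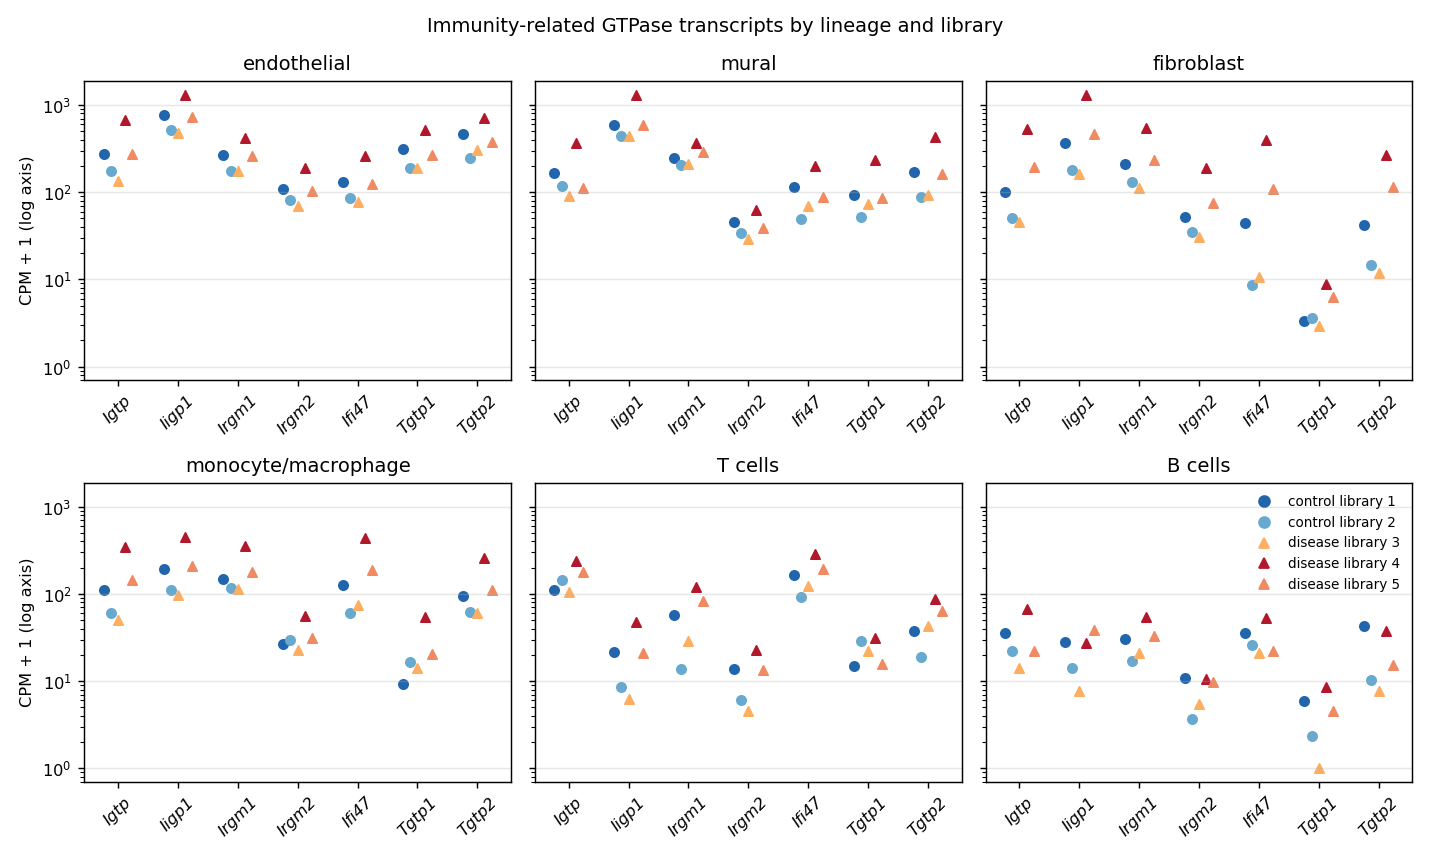
CPM + 1 (log axis) of each member in 6 lineages, with 1 point per library, circles for the 2 control and triangles for the 3 disease libraries. Disease library 4 is the highest point for all 7 members in endothelial cells and fibroblasts, and Tgtp1 in fibroblasts lies below 10 CPM in every library.

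Levels of single members were compared between T cells, monocytes and macrophages, fibroblasts and endothelial cells within libraries (edgeR quasi-likelihood test with library as a block, Benjamini-Hochberg adjustment over all genes and pairs). Of 42 tests of a member in a pair of lineages, 31 passed an adjusted p of 0.05. Lineages differ in most genes, so this count is close to the background. Between endothelial and T cells 6 of 7 members passed, against 71% of all genes, and between endothelial cells and fibroblasts 6 of 7, against 66.3%. Between endothelial cells and macrophages 5 of 7 passed (69.9% of genes), between fibroblasts and T cells 5 (75.3%), between fibroblasts and macrophages 5 (71.9%), and between macrophages and T cells 4 (66.3%). The direction and size of the differences were not shared by the members, as follows.

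Among the regulators, Irgm1 differed little between endothelial cells, fibroblasts and macrophages and was lower in T cells. It stood at 265 and 172 CPM in endothelial cells of control libraries 1 and 2 and at 173, 417 and 256 CPM in disease libraries 3, 4 and 5. In fibroblasts the values were 209 and 130 CPM, and 110, 544 and 236 CPM. Endothelial cells and fibroblasts overlapped, with a difference of 0.11 ± 0.16 log2 (SE, adjusted p = 0.55, edgeR). T cells were lower, at 12.7 to 120 CPM, and the endothelial level exceeded theirs by 1.84 ± 0.18 log2 (SE, adjusted p = 7.9e-09, edgeR).

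Among the lineages with at least 50 cells in every library, Irgm2 and Igtp were highest in endothelial cells. Irgm2 ranged there from 67.8 to 190 CPM and exceeded the T cell level by 2.93 ± 0.20 log2 (SE, adjusted p = 1.7e-11, edgeR) and the fibroblast level by 0.64 ± 0.15 log2 (adjusted p = 0.00054). Igtp ranged from 133 to 669 CPM in endothelial cells and from 105 to 240 CPM in T cells. That difference of 0.59 ± 0.24 log2 passed the threshold (SE, adjusted p = 0.035, edgeR), but not without control library 1 (0.41, adjusted p = 0.22), disease library 4 (0.42, adjusted p = 0.095) or disease library 5 (0.63, adjusted p = 0.063). Irgm2 in T cells was 3.51 to 21.5 CPM.

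The effectors Iigp1 and Ifi47 had contrasting patterns. Iigp1 was counted at 765 and 511 CPM in endothelial cells of control libraries 1 and 2 and at 478, 1288 and 719 CPM in disease libraries 3, 4 and 5. In T cells it was 20.7 and 7.64 CPM, and 5.26, 46.7 and 19.9 CPM, from as few as 3 UMIs in each of control library 2 and disease library 3. The ranges did not overlap, and the difference was 5.04 ± 0.22 log2 (SE, adjusted p = 4.9e-15, edgeR). T cell Iigp1 amounted to 1.10 to 3.63% of the endothelial level, and the endothelial gate markers in T cells to 0.494 to 1.12%, lower than Iigp1 within each of the 5 libraries. The gate itself lowers those markers, and the part of carried-over endothelial RNA in the T cell value was not tested.

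Ifi47 was as high in T cells as in endothelial cells. T cells had 163 and 91.7 CPM in control libraries 1 and 2 and 123, 288 and 193 CPM in disease libraries 3, 4 and 5. Endothelial cells had 131 and 85.4 CPM, and 75.8, 256 and 124 CPM, below T cells in 5 of 5 libraries, and the difference of -0.54 ± 0.41 log2 did not pass (SE, adjusted p = 0.24, edgeR). Fibroblasts were lower than T cells, with a difference of -1.63 ± 0.41 log2 (SE, adjusted p = 0.0013, edgeR). Fibroblast Ifi47 spread widely between libraries, from 7.73 CPM in control library 2 to 401 CPM in disease library 4. Its endothelial minus fibroblast difference of 1.09 ± 0.40 log2 (SE, adjusted p = 0.018, edgeR) was lost without control library 1 (adjusted p = 0.077), control library 2 (0.12) or disease library 3 (0.086).

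Tgtp1 and Tgtp2, the near-identical pair, were both highest in endothelial cells. Tgtp1 was counted at 312 and 186 CPM in endothelial cells of control libraries 1 and 2 and at 190, 515 and 267 CPM in disease libraries 3, 4 and 5. In fibroblasts it was 2.38 and 2.65 CPM, and 1.90, 7.80 and 5.23 CPM. The endothelial level was higher by 6.15 ± 0.26 log2 (SE, adjusted p = 2.5e-15, edgeR), a size that rests on how reads were divided between the 2 genes. The sum of the pair was 776 and 435 CPM in endothelial cells of control libraries 1 and 2 and 492, 1226 and 642 CPM in disease libraries 3, 4 and 5. In fibroblasts the sum was 43.5 and 16.2 CPM, and 12.6, 275 and 119 CPM. It was higher in endothelial cells in 5 of 5 libraries, by a mean of 3.71 ± 1.35 on the log2(CPM + 1) scale (SD, n = 5), and was not tested. Fibroblast Tgtp1 amounted to 0.762 to 1.95% of the endothelial level, and the endothelial gate markers in fibroblasts to 0.575 to 1.09%. Tgtp1 was the higher of these within each of the 5 libraries. The gate itself lowers those markers, and the part of carried-over endothelial RNA in the fibroblast value was not tested. At this low level no expression of Tgtp1 in fibroblasts is read from it.

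Tgtp2 was present in fibroblasts of every library, at 41.1 and 13.5 CPM in control libraries 1 and 2 and 10.7, 268 and 114 CPM in disease libraries 3, 4 and 5. Endothelial cells exceeded them by 2.82 ± 0.35 log2 (SE, adjusted p = 2.3e-07, edgeR). As a share of the UMIs of the pair, Tgtp1 made up 38.6 to 42.8% in endothelial cells and 2.83 to 16.4% in fibroblasts. In macrophages it was 8.02 to 20.4%. These shares were chosen after their values were seen and are given with no test. The fibroblast share rests on the low Tgtp1 counts above and on the division of reads between the 2 genes, and no difference in the use of the pair is read from it.

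**Figure D2:**
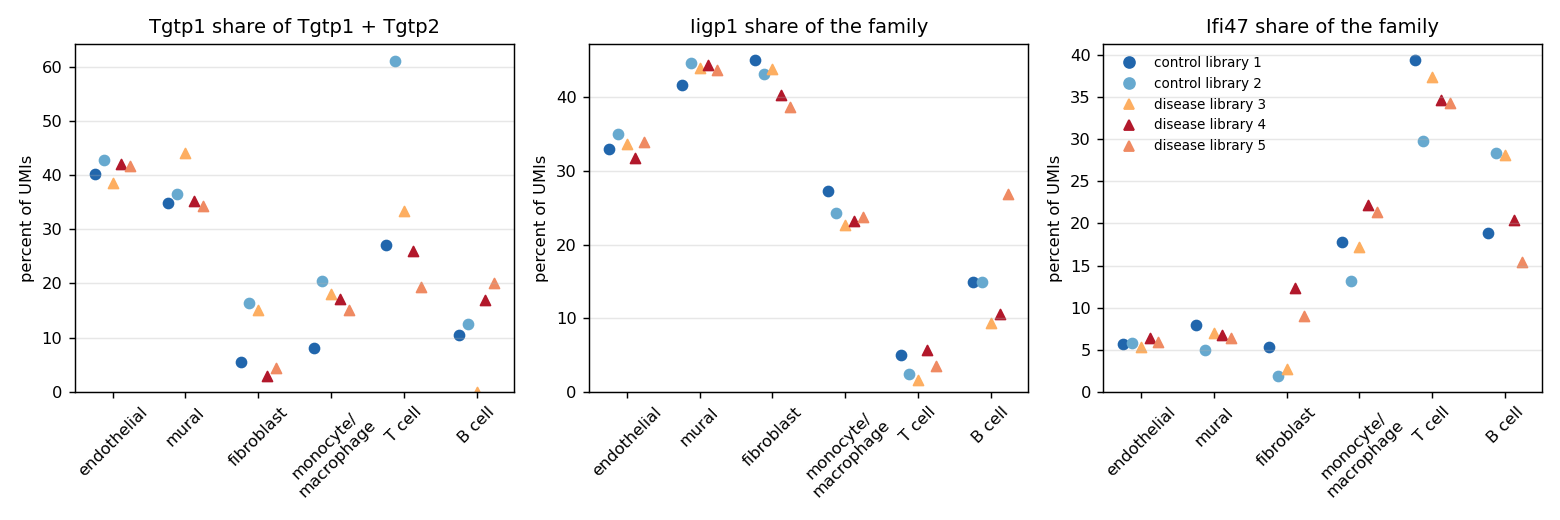
Percent of UMIs by lineage and library for Tgtp1 within the Tgtp1 and Tgtp2 pair, and for Iigp1 and Ifi47 within the family (circles, control; triangles, disease). The endothelial points for Tgtp1 lie between 38.6 and 42.8% and the fibroblast points at or below 16.4%, while Ifi47 makes up 29.8 to 39.4% of the family in T cells.

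The make-up of the family in each lineage is given as a description, with no test. Iigp1 held 31.8 to 35.0% of the family's UMIs in endothelial cells, 38.7 to 45.1% in fibroblasts and 22.6 to 27.2% in macrophages, against 1.60 to 5.62% in T cells. Ifi47 held 5.34 to 6.34% in endothelial cells and 29.8 to 39.4% in T cells. Of the UMIs of Iigp1 and Ifi47 together, Iigp1 made up 83.4 to 86.3% in endothelial cells and 4.11 to 13.9% in T cells, a pair chosen after the values were seen. Igtp was the other large part in T cells, with 26.6 to 47.1% of the family. In fibroblasts the make-up also differed between libraries: Ifi47 was 1.85% of the family in control library 2 and 12.4% in disease library 4.

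At equal depth the share of cells with a family UMI was also highest in endothelial cells and lowest in B cells. Only lineages with at least 50 cells in every library were ranked. To equalise depth, 1000 UMIs were drawn from every cell. Shallower cells were dropped, which removed 69 and 208 endothelial cells in control libraries 1 and 2 and 98, 228 and 208 in disease libraries 3, 4 and 5, and between 0 and 67 cells in each other lineage and library. At least 1 UMI of a member was found in 53.8 to 75.3% of endothelial cells, 24.8 to 63.9% of fibroblasts, 28.5 to 64.0% of monocytes and macrophages, 24.4 to 48.5% of T cells and 6.0 to 16.6% of B cells. B cells are given as the low lineage, since no lineage that should lack the family was fixed. The median depth before thinning was 2256 to 3097 UMIs in endothelial cells, 5453.5 to 6283 in fibroblasts and 2333 to 3073 in B cells. Without thinning, the median share over libraries was 78.4% in endothelial cells and 68.6% in fibroblasts. For mural cells of disease library 4, with 59 cells, the share of 54.2% had an interval of 41.7 to 66.3% (95% Wilson), and such intervals cover counting error only.

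**Figure D3:**
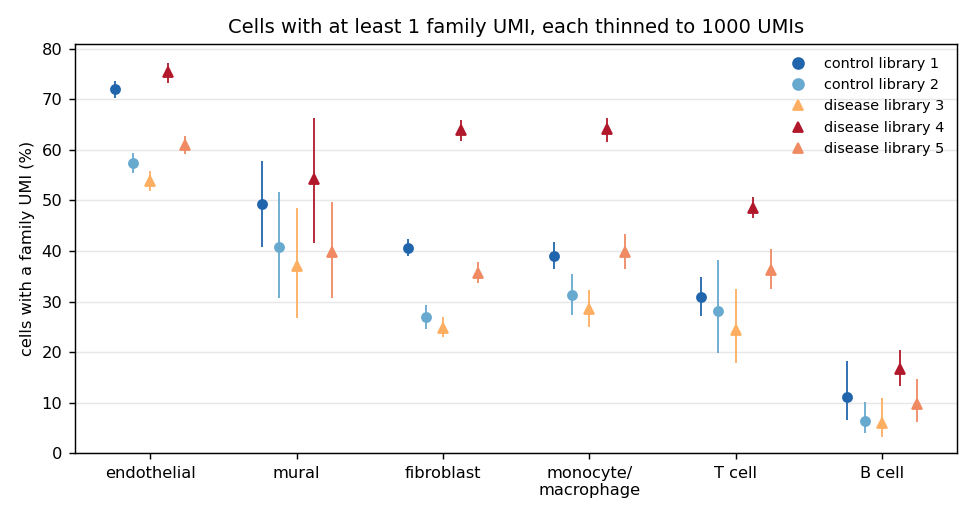
Percent of cells with at least 1 UMI of the 7 members after thinning to 1000 UMIs, by lineage and library, with 95% Wilson intervals. Endothelial cells lie between 53.8 and 75.3% and B cells at or below 16.6%.

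In disease library 4 several members were often found in the same cell. At 1000 UMIs, 36.9% of endothelial cells and 25.6% of fibroblasts of that library had UMIs of 3 or more members. In control libraries 1 and 2 the values were 23.5 and 13.3% of endothelial cells, and in disease libraries 3 and 5 they were 11.5 and 18.5%. In fibroblasts they were 3.59 and 0.740% in the controls, and 0.761 and 7.21% in disease libraries 3 and 5. In endothelial cells disease libraries 3 and 5 lay below control library 1. In fibroblasts disease library 3 lay between the controls, and disease libraries 4 and 5 lay above both.

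The comparison of disease with control asked whether loss of a Ctla4 copy goes with a change in the family. Over all cells, summed levels were 1127 and 870 CPM in control libraries 1 and 2 and 770, 2262 and 1345 CPM in disease libraries 3, 4 and 5. The highest and the lowest library were both disease libraries, and the groups overlapped for every member. None of the 7 members passed an adjusted p of 0.05 in edgeR's quasi-likelihood test (0 of 7, against 6.43% of 16074 genes), and none had an unadjusted p under 0.05 (16.1% of genes). DESeq2 called 0 as well. All 7 fitted log2 fold changes were above 0 (51.7% of genes), with a median of 0.51 beside 0.02 for all genes. Non-overlapping groups with disease higher were found for 0 of 7 members and 14.9% of genes. The median was -0.0065 without disease library 4, with 3 of 7 members above 0, and 0.80 without control library 1 and 0.79 without disease library 3. A sum over all cells also mixes the number of cells of each lineage with the RNA per cell, which cannot be told apart in it.

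Ifng, the gene of the inducer, was also highest in disease library 4. Over all cells it was 28.1 and 1.35 CPM in control libraries 1 and 2 and 6.95, 107 and 31.5 CPM in disease libraries 3, 4 and 5. Control library 1 and disease library 5 were close to each other, control library 2 and disease library 3 were low, and disease library 4 was highest. The groups overlapped (log2 fold change 1.79 ± 1.61, SE, adjusted p = 0.60, edgeR). Within T cells Ifng was 365 and 28.01 CPM, and 223, 420 and 349 CPM. Its part in the levels of the GTPases was not tested.

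**Figure D4:**
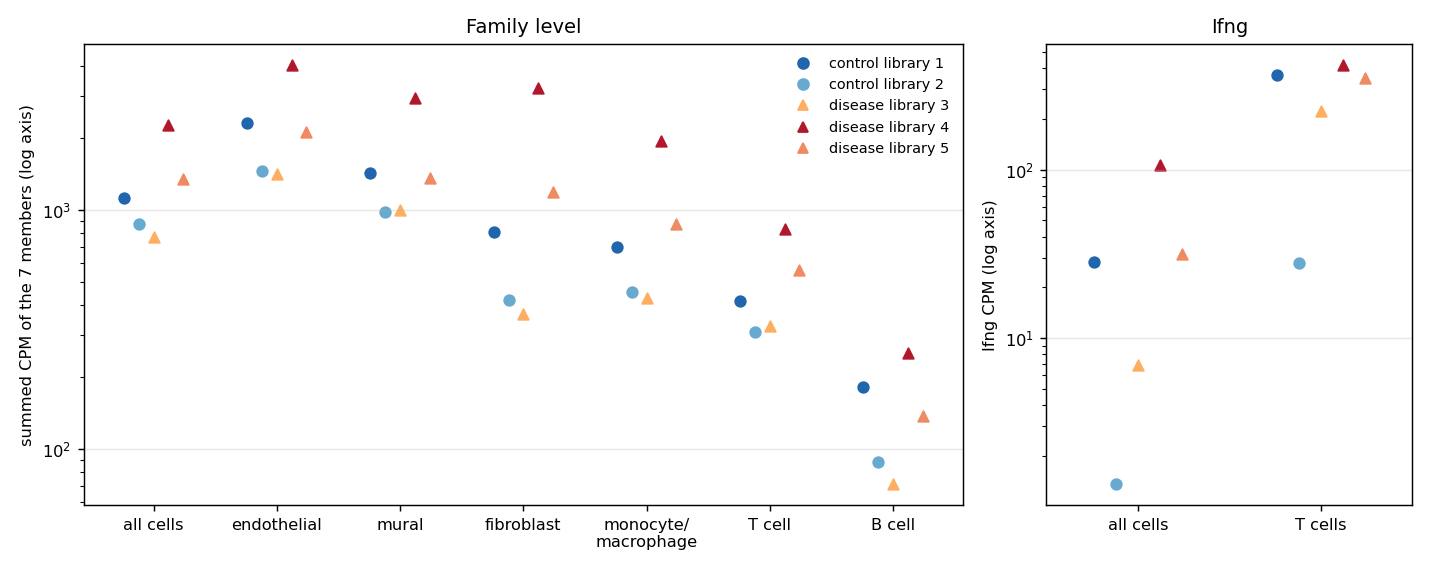
Left, summed CPM of the 7 members (log axis) over all cells and in 6 lineages. Right, Ifng CPM (log axis) over all cells and in T cells, with 1 point per library (circles, control; triangles, disease). Disease library 4 is highest in each column, at 4047 CPM for the family in endothelial cells, while control library 2 and disease library 3 are the lowest pair for the family in each.

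In endothelial cells, the highest of the lineages with at least 50 cells in every library, no difference between genotypes was detected. None of the 7 members was called (12.2% of 12569 genes), none had an unadjusted p under 0.05 (24.7%), and in none did the groups separate (26.1% with disease higher). The 7 fold changes were above 0 (50.1% of genes), from 0.29 for Irgm2 to 0.60 for Igtp, with a median of 0.31. With upper-quartile scaling the median was 0.54, beside a median over all genes of 0.23 under that scaling. Igtp, with 274 and 176 CPM in control libraries 1 and 2 and 133, 669 and 274 CPM in disease libraries 3, 4 and 5, had a fold change of 0.60 ± 0.66 log2 (SE, adjusted p = 0.61, edgeR). Without disease library 4 all 7 were below 0, with a median of -0.17. The median also moved to 0.043 without control library 2, 0.73 without control library 1 and 0.57 without disease library 3.

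In fibroblasts the fitted differences were larger and so was the spread. None of the 7 members was called (13% of 13424 genes), none had an unadjusted p under 0.05 (28.1%), and none separated the groups (25.7% with disease higher). All 7 fold changes were above 0 (49.3% of genes), with a median of 1.17. Ifi47 had the largest, 2.65 ± 1.55 log2 (SE, adjusted p = 0.32, edgeR), from 43.6 and 7.73 CPM in control libraries 1 and 2 and 9.77, 401 and 107 CPM in disease libraries 3, 4 and 5. Tgtp2 followed with 2.18 ± 1.27 (adjusted p = 0.32). In both genes disease library 3 lay within or below the control libraries. The median was 0.48 without disease library 4, with 6 of 7 members above 0, and 1.81 without control library 1. Without disease library 3, Tgtp1 passed (log2 fold change 1.32, adjusted p = 0.048, edgeR), at the low level given above.

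In monocytes and macrophages, cells that kill ingested parasites and respond to interferon-gamma, none of the 7 members was called (6.78% of 11350 genes), none had an unadjusted p under 0.05 in edgeR (18.4%) and 1 had in DESeq2. No member separated the groups (13.4% with disease higher), and all 7 fold changes were above 0 (51% of genes), with a median of 1.02. Tgtp1 had the largest, 1.54 ± 0.69 log2 (SE, adjusted p = 0.30, edgeR), from 8.19 and 15.6 CPM in control libraries 1 and 2 and 13.2, 52.9 and 19.5 CPM in disease libraries 3, 4 and 5. With no filter on low counts Tgtp1 passed (adjusted p = 0.028). Ifi47, at 125 and 59.6 CPM and 73.3, 433 and 188 CPM, had 1.47 ± 0.79 log2 (SE, adjusted p = 0.37, edgeR). The median was 0.15 without disease library 4 and 0.63 without control library 2.

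In T cells, 1 member separated the groups. Tgtp2 was 37.0 and 17.8 CPM in control libraries 1 and 2 and 42.1, 85.7 and 62.0 CPM in disease libraries 3, 4 and 5, so every disease library was above both controls, as in 11.6% of genes. Its fold change of 1.14 ± 0.40 log2 did not pass the adjustment (SE, adjusted p = 0.20, edgeR), and control library 2 rested on 7 UMIs. None of the 7 members was called (4.71% of 9780 genes), and Tgtp2 was the only member with an unadjusted p under 0.05 (14.8% of genes). All 7 fold changes were above 0 (53.7% of genes), with a median of 0.66. It was 0.17 without disease library 4 and 1.43 without control library 1.

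In B cells and mural cells no member was called either. In B cells 5 members passed the filter on low counts and 0 were called (9.17% of 5301 genes), 0 had an unadjusted p under 0.05 (22.5%), 0 separated the groups with disease higher (13.8%) and 4 were above 0 (52.2%). In mural cells 7 were tested, 0 were called (8.03% of 6426 genes), 0 had an unadjusted p under 0.05 (20%), 0 separated the groups with disease higher (17.8%) and 6 were above 0 (52%). With 1 library left out, the members' median ranged from -0.0075 (without control library 2) to 1.00 (without control library 1) in B cells. With upper-quartile scaling all 5 members tested in B cells and all 7 in mural cells were above 0. In mural cells the median with 1 library left out ranged from -0.092 (without disease library 4) to 0.82 (without control library 1).

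**Figure D5:**
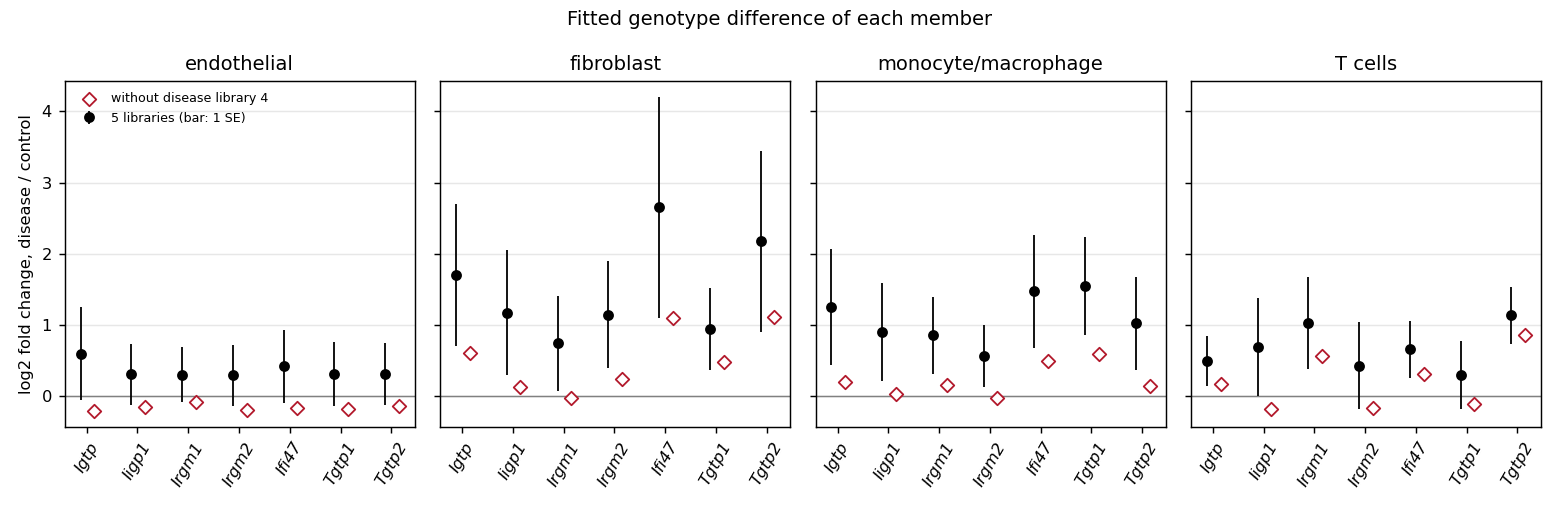
Fitted log2 fold change of disease over control for each member in 4 lineages, with 1 SE (black), and the value without disease library 4 (open diamonds). In endothelial cells all 7 diamonds lie below 0, and in fibroblasts the Ifi47 value moves from 2.65 to 1.09.

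The size of the genotype difference was also compared between lineages, with a lineage by genotype term. None of 42 tests of a member in a pair of lineages passed in edgeR, the lowest adjusted p being 0.66, and 4 had an unadjusted p under 0.05. Few genes passed at all. For endothelial cells the shares of all genes called were 0.0215% against fibroblasts, 0.0718% against macrophages and 0.0287% against T cells. They were 0.0861% between fibroblasts and macrophages, 0.0431% between fibroblasts and T cells, and 0.0287% between macrophages and T cells. Without disease library 3, Tgtp2 and Ifi47 passed between endothelial cells and fibroblasts, with log2 differences of -2.23 (adjusted p = 0.0057, edgeR) and -2.59 (adjusted p = 0.034), both larger in fibroblasts.

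The guanylate-binding proteins are the other large interferon-induced GTPase family, and act on the same vacuoles. Of 11 Gbp genes listed, 10 were tested over all cells, all 10 fold changes were above 0 and none was called in edgeR. Their median was 1.13, beside 0.51 for the 7 GTPases, and 2.00 in fibroblasts, 1.82 in macrophages and 0.85 in endothelial cells. In T cells 8 of 9 tested were above 0 and the Gbp median of 0.57 was below the 0.66 of the GTPases, and it was 0.47 in B cells (5 tested) and 0.57 in mural cells (7 tested). Gbp2b and Gbp10 had the largest fold changes over all cells. Gbp10 was 7.52 and 3.04 CPM in control libraries 1 and 2 and 2.36, 49.7 and 20.2 CPM in disease libraries 3, 4 and 5, so the groups overlapped (2.28 ± 1.30 log2, SE, adjusted p = 0.47, edgeR). Gbp2b, at 0.169 to 132 CPM, had 3.34 ± 2.18 log2 (adjusted p = 0.51). Of 9 further genes of the immunity-related GTPase family, 8 were tested over all cells, all were above 0 with a median of 0.30, and none was called. Gm12185 had the largest, 1.16 ± 0.69 log2 (SE, adjusted p = 0.48), followed by Gm5431 with 0.70 ± 0.47 (adjusted p = 0.52).

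Genes of the interferon-gamma pathway and of the conjugation machinery that loads GTPases onto vacuoles were called in edgeR only as lower in disease. Of 12 pathway genes, 2 were called lower over all cells (6.39% of genes) and 2 in endothelial cells (11.8%). Of 11 tested, 4 were called lower in B cells (9%), 3 in fibroblasts (12.7%), 2 in T cells (4.7%) and 1 in macrophages (6.6%). Of 9 tested in mural cells, 1 was called lower (7.7%). None was called higher in these 7 fits. Ifngr2, a chain of the interferon-gamma receptor, was 56.3 and 47.7 CPM in control libraries 1 and 2 and 13.1, 13.8 and 13.2 CPM in disease libraries 3, 4 and 5 (-1.92 ± 0.17 log2, SE, adjusted p = 0.0054, edgeR). The groups did not overlap, and the fold change was -1.97 in endothelial cells, -1.93 in fibroblasts and -1.89 in macrophages. Socs1, which inhibits the Jak kinases, fell in T cells from 101 and 102 CPM to 3.51, 6.55 and 6.40 CPM (-4.06 ± 0.30 log2, SE, adjusted p = 0.0037, edgeR). It was also called over all cells (-1.65 ± 0.26 log2, adjusted p = 0.025) and in fibroblasts (-1.57). Jak1 was called in T cells (-1.27 ± 0.27 log2, SE, adjusted p = 0.042), endothelial cells (-0.75) and fibroblasts (-0.83).

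Of 13 genes of the conjugation machinery and related factors, 3 were called lower over all cells (6.39% of genes): Sqstm1, an autophagy receptor, Atg3, a conjugating enzyme, and Traf6, a ubiquitin ligase. Of the 13, 4 were called lower in endothelial cells (11.8% of genes), 3 in fibroblasts (12.7%), 2 in macrophages (6.6%) and 1 in T cells (4.7%). In B cells 2 of 11 tested were called lower (9%) and in mural cells 1 of 10 (7.7%). Sqstm1 was 861 and 728 CPM in the controls and 247, 297 and 285 CPM in disease libraries 3, 4 and 5 (-1.48 ± 0.21 log2, SE, adjusted p = 0.020, edgeR), and it was called lower in each lineage tested. Map1lc3a, which had the next largest fold change, was -1.29 ± 0.46 log2 (adjusted p = 0.25). Atg16l1 was called in endothelial cells alone among the fits (-0.60 ± 0.12 log2, SE, adjusted p = 0.030); the difference from the other lineages was not tested. These calls belong to a one-sided pattern over all genes: 6 genes were called higher and 1027 lower over all cells. In endothelial cells 45 were called higher and 1488 lower, and 624 and 1176 with upper-quartile scaling, which moved the median of all genes by 0.23 log2. In fibroblasts the counts were 49 and 1699, and 1027 and 1379 with that scaling.

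GC content at the transcript start differed between these genes and the GTPases. Over their first 300 bases the 5 genes called over all cells held 55.5 (Atg3), 57.7 (Sqstm1), 60.3 (Ifngr2), 63.0 (Traf6) and 73.7% GC (Socs1), beside 52.7% for the median gene and 42.3% (Iigp1) to 53.7% (Irgm1) for the 7 GTPases. Genes of the same lists that were not called over all cells ranged from 47.0% (Ifng) to 80.3% (Jak2). Jak1, called in 3 lineages named above, held 63.8%, and Atg16l1, called in endothelial cells, held 62.7%. After a GC trend was removed, Ifngr2 (-1.69 log2, adjusted p = 0.014) and Sqstm1 (-1.39, adjusted p = 0.025) were still called over all cells, and Socs1 (-0.95, adjusted p = 0.23), Traf6 (-0.46, adjusted p = 0.34) and Atg3 (-1.27, adjusted p = 0.054) were not. The Atg3 fold change was the same to 2 decimals before and after, and those of Socs1 and Traf6 were nearer to 0. In T cells Socs1 was still called (-3.18, adjusted p = 0.0043) and Jak1 was not (-0.85, adjusted p = 0.22). Jak1 was also lost in endothelial cells (-0.24, adjusted p = 0.36) and fibroblasts (-0.30, adjusted p = 0.45), as was Atg16l1 in endothelial cells (-0.17, adjusted p = 0.53). The removal of the trend also moved all genes. Over all cells 25 genes were then called higher and 666 lower, with a median of 0.10 log2. In endothelial cells the counts were 492 and 1040 (median 0.15), in fibroblasts 444 and 1128 (median 0.14) and in T cells 4 and 307 (median 0.11). Preparation of the libraries and genotype cannot be told apart here, since the labels give no batch.

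The genes most like the family in pattern were found by Pearson correlation of log2(CPM + 1) with the summed CPM of the members, over 32 sums of a library and a lineage and 13730 genes. The points share libraries, lineages and depth, so the values are a description. The 10 highest were Gbp7 (r = 0.933), Gbp2 (0.913), Parp9 (0.902), Ifit3 (0.900), Ifit2 (0.894), Bst2 (0.887), Gbp5 (0.880), Chmp2a (0.879), Xaf1 (0.878) and Ube2l6 (0.875). Gbp7, the nearest, was 355 and 225 CPM in endothelial cells of control libraries 1 and 2 and 241, 670 and 307 CPM in disease libraries 3, 4 and 5. In fibroblasts it was 58.2 and 31.3 CPM, and 37.2, 284 and 87.4 CPM. Within the family, Iigp1 and Irgm2 were the closest pair (r = 0.936) and Iigp1 and Ifi47 the least alike (r = 0.328).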

How the data were processed

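For each library the authors deposited a matrix of unnormalized UMI counts (genes by barcodes), whose header names Cell Ranger 3.1.0. That header states no build, and the submitters' processing notes name mm10 and GRCh38 without a role. Barcodes with at least 500 UMIs, 200 genes and at most 10% mitochondrial UMIs were kept. Scrublet (scanpy 1.11.5) removed 1110 doublets, but only 0.0716% in control library 2, where it did not work. A lineage needed 3 marker UMIs from 2 genes and 3 times those of any other list, which leaves out cells with markers of 2 lineages. Counts were summed per library and lineage and tested with edgeR 4.0.16 (TMM, filterByExpr, quasi-likelihood F test, Benjamini-Hochberg, R 4.3.3). CPM values use plain totals. DESeq2 1.42.0, other scalings, filters and gates, a GC trend and leaving out each library were alternatives. On simulated endothelial data (12569 genes) 99% of log2 changes of 2 and 28% of changes of 1 were recovered, and 86% of changes of 1 between lineages (13593 genes). The simulations gave all genes the same fixed dispersion and changed only genes with higher counts. Their shares therefore do not measure the power for the members, whose own spread was not simulated. Members and gene lists were chosen with earlier results of these data known. Named genes are the members, list genes called or with the 2 largest fold changes in the fit described, the 10 most alike, Ifng, Ctla4 and Pdcd1. Ifngr2 and Gbp values in further fits were named for their role. One listed gene is not reported here. Gm12250 and Gbp11 were not matched.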

Additional observations from a re-analysis of the deposited data

How the results depend on the processing

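No paired analysis was possible because the control and disease libraries share no replicate number. In 53 of 54 counts of members called under other tools, filters, gates or scalings, and in 34 of 35 with a library left out, the count stayed at 0. The exceptions were 1 in monocytes and macrophages with no filter on low counts and 1 in fibroblasts with a library left out (range 0 to 1). Members' fold changes over all cells and in T cells, macrophages, endothelial cells and fibroblasts kept their sign under every alternative run other than leaving out a library. With a library left out, the log2 fold changes that changed sign ranged over all cells from -0.041 to 0.76 for Iigp1, -0.029 to 0.80 for Irgm1, -0.0065 to 0.73 for Irgm2 and -0.015 to 0.31 for Tgtp1. In T cells they ranged from -0.18 to 1.76 for Iigp1, -0.17 to 1.43 for Irgm2 and -0.38 to 0.71 for Tgtp1. In macrophages Irgm2 ranged from -0.026 to 0.81 and in fibroblasts Irgm1 from -0.026 to 1.17. In endothelial cells the ranges were -0.21 to 0.99 for Igtp, -0.15 to 0.63 for Iigp1, -0.082 to 0.65 for Irgm1, -0.19 to 0.57 for Irgm2, -0.17 to 0.76 for Ifi47, -0.18 to 0.73 for Tgtp1 and -0.13 to 0.83 for Tgtp2. Between lineages, differences that changed sign ranged from -0.16 to 0.033 for Igtp (fibroblasts minus macrophages), -0.21 to 0.28 for Tgtp1 (macrophages minus T cells) and -0.22 to 0.55 for Tgtp2 (fibroblasts minus T cells). The genotype tests between lineages gave 0 to 2 calls with a library left out, and the Irgm1 term between endothelial cells and fibroblasts ranged from -0.50 to 0.072. Shares of cells with a family UMI rise with depth by construction: without thinning the medians over libraries were 77.5% (T cells), 72.1% (macrophages), 68.6% (fibroblasts) and 78.4% (endothelial cells), and at 2000 UMIs 54.2% (T cells), 53.3% (macrophages) and 75.4% (endothelial cells). Of the 10 genes most alike, 9 were kept with a pseudocount of 5 CPM. With 2 control and 3 disease libraries, differences under about the spread between libraries could not be detected.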

Other observations

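Schwann cells, the glia of cardiac nerves, numbered 19 to 45 per library, too few for a test. Their summed GTPase level was 1666 and 1046 CPM in control libraries 1 and 2, from 212 and 65 UMIs. In disease libraries 3, 4 and 5 it was 807, 6273 and 1957 CPM, from 62, 297 and 115 UMIs. Neutrophils, with 21 to 76 cells per library, had 217 and 163 CPM in the controls and 257, 912 and 181 CPM in disease libraries 3, 4 and 5. Natural killer cells, with 8 to 38 cells, had 478 and 251 CPM, and 257, 551 and 199 CPM. In all 3 of these lineages disease library 4 was the highest. Dendritic cells, with 2 to 36 cells, differed in this: control library 1 was the highest, with 542 CPM from 115 UMIs, and control library 2 had 46.2 CPM from 2 UMIs. Disease libraries 3, 4 and 5 had 115, 510 and 266 CPM.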
